A study of Homo sapiens with 4 samples.

Results

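The mRNAs of collagen, laminin and basement membrane genes were measured by RNA-Seq in BEAS2B cells, a virus-transformed human bronchial epithelial line. The members are all collagen and laminin chain genes by their symbol, with NID1, NID2, HSPG2, AGRN, SPARC, FBN1, FBN2, FBLN1, FBLN2, ELN, LOX, LOXL1, LOXL2, TNC and VCAN, which together make 65 of the 16708 genes listed in at least 1 library. The rule itself uses gene names and no measured value. In 2 libraries (sh-QKI) the cells carried 1 retroviral shRNA (sh-Q3) directed at all isoforms of QKI, an RNA-binding protein of the STAR family, and in 2 libraries (sh-Ctrl) they carried an shRNA to luciferase (sh-Luc). Both groups were stably transduced, grown in the same serum-containing medium, and numbered replicate 1 and replicate 2. Whether the libraries of a group were grown as separate cultures is not stated, so p-values cover the spread among 4 libraries and that spread may be technical. Levels are RPKM, reads per gene divided by gene length and library total, and 0 was entered for a gene that a library does not list.

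Collagens are trimers of chains wound into a triple helix. Fibrillar collagens build fibers in connective tissue, whereas type IV collagen forms a network in the basement membrane, the sheet of matrix under every epithelium. Laminins, each made of an alpha, a beta and a gamma chain, form the other network of that sheet, and nidogen, perlecan and agrin link the networks to each other and to the cell surface. In the airway this sheet anchors the bronchial epithelium.

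The total reads by which the authors divided, recovered from the values, ranged from 20052951 to 34862008, with replicate 2 deeper than replicate 1 in both groups. QKI, the targeted gene, was at 2.52 and 3.85 RPKM in sh-QKI replicates 1 and 2, against 8.94 and 14.6 RPKM in sh-Ctrl replicates 1 and 2. Of the marker lists, the epithelial one summed to between 195 and 419 RPKM per library, nearly all from KRT8 and KRT18. EPCAM ranged from 0.619 to 0.811 RPKM and KRT19 from 0.113 to 0.875 RPKM. CDH1, the defining cadherin of epithelia, reached at most 0.181 RPKM, TP63 was listed in 1 library only, and KRT5 was not listed. The fibroblast and mesenchymal list, led by VIM, summed to 793 and 383 RPKM in the sh-QKI libraries and to 1090 and 392 RPKM in the sh-Ctrl libraries. Of that list, THY1 ranged from 72.9 to 85.3 RPKM, CDH2 from 35.4 to 41.7 RPKM and PDGFRB from 7.11 to 11.8 RPKM. PDGFRA reached at most 0.00735 RPKM and LUM at most 0.0601 RPKM, and DCN was not listed. Smooth muscle markers summed to 191 and 32.7 RPKM in the sh-QKI libraries and 260 and 27.2 RPKM in the sh-Ctrl libraries, nearly all TAGLN. Leukocyte markers summed to between 15.5 and 21.4 RPKM, mostly CD68, with PTPRC at or near 0. CD14, of the same list, had 0.794 and 4.84 RPKM in sh-QKI, against 0.815 and 5.22 RPKM in sh-Ctrl. Endothelial markers summed to at most 0.245 RPKM. The part of these levels in the results was not tested.

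Of the 65 members, 53 were listed in all 4 libraries, and between 57 and 61 in a single library. A mean of at least 0.5 RPKM over the 4 libraries, the limit for testing, was met by 36 members, and 23 had a mean of at least 10 RPKM (63.9% of the tested members, against 42.4% of all 11829 tested genes). The other 29 are described by their levels only. Tested members had between 105 and 65121 reads per library.

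**Figure D1:**
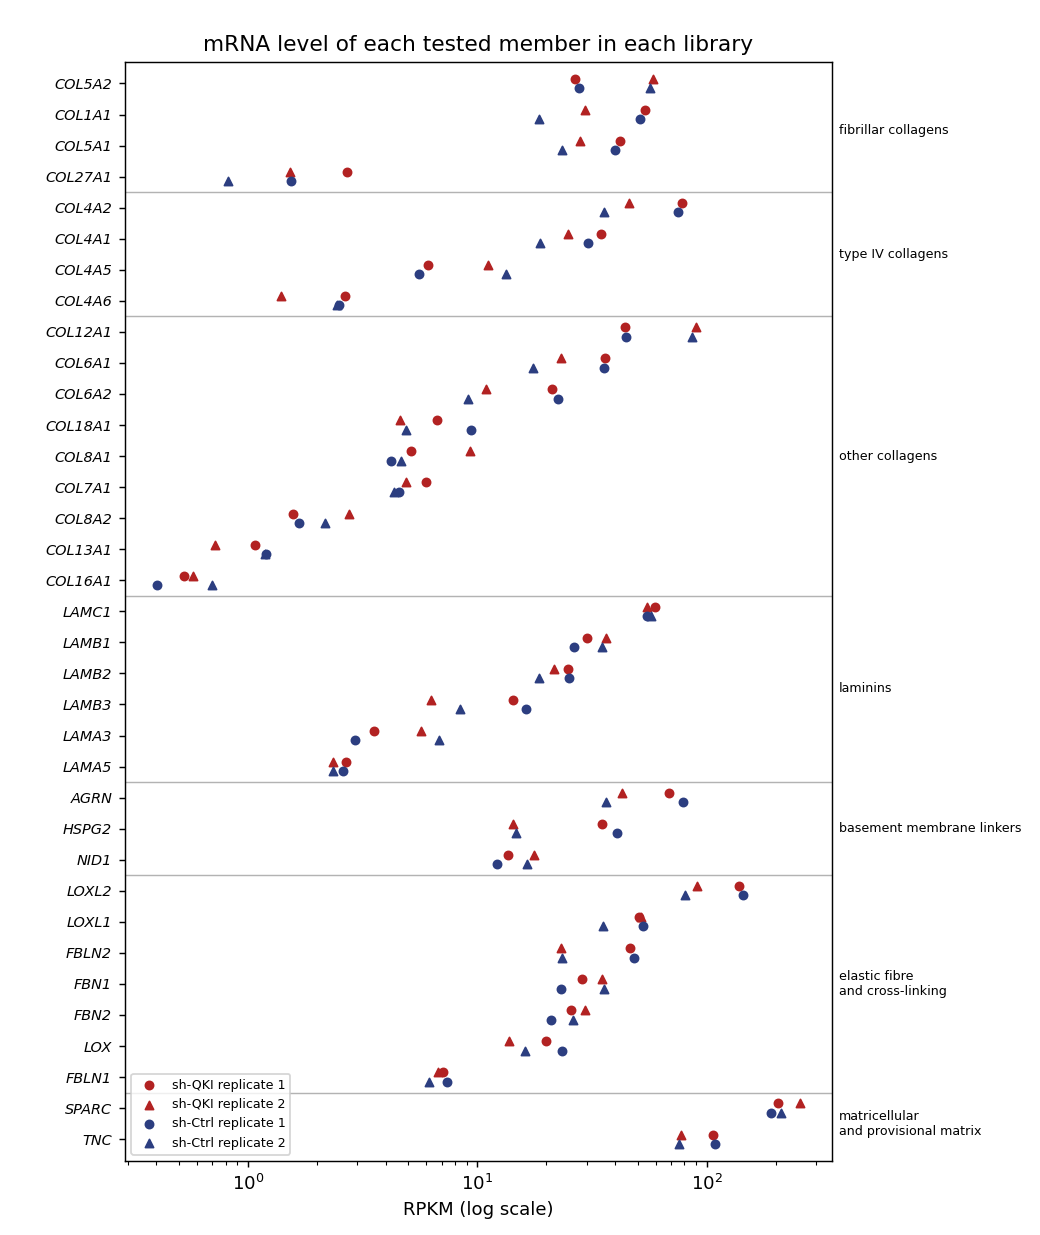
RPKM (x axis, log scale) of 35 tested members (rows, by class) in sh-QKI replicates 1 and 2 (red) and sh-Ctrl replicates 1 and 2 (blue), with replicate 1 as circles and replicate 2 as triangles. Circles and triangles lie apart for many members, such as COL5A2 and COL12A1, and SPARC has the highest levels, at 191 to 255 RPKM.

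Depletion of QKI came with few differences among these genes. Differences are given on the log2(RPKM + 0.5) scale, sh-QKI minus sh-Ctrl, which understates changes of low genes. In bulk RNA, fewer cells that make an mRNA and less of it per cell cannot be told apart. The median over the 36 tested members was 0.04, with 0.03 within replicate 1 and 0.08 within replicate 2, against 0.03, 0.02 and 0.05 over all tested genes. Higher in sh-QKI within both replicate numbers were 12 members (33.3%), lower within both were 7 (19.4%), and 17 (47.2%) had opposite directions. Over all tested genes these shares were 31.7%, 16.6% and 51.7%. COL27A1 and COL8A1 were at least 0.25 higher within both numbers, as 1.83% of tested genes were. Of the 36 members, 0 differed over 2-fold between group means, against 0.234% of genes higher and 0.335% lower.

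Limma without a term for the replicate number called 0 of the 36 tested members at an adjusted p under 0.05, against 0.0% of the 11829 tested genes. This fit did not call QKI, the targeted gene, either (limma adjusted p = 0.9999, against 3.16e-33 with the term). Its 0 calls can therefore go with a large difference. At an unadjusted p under 0.05 this fit gave 13 genes and 0 members. Voom of limma on recovered reads, without that term, called 0. The libraries of one number resembled each other: the difference of replicate 2 minus replicate 1 in sh-QKI and in sh-Ctrl had a Pearson r of 0.904 across the 36 members and 0.953 across all tested genes with a GC value (n = 11616). Replicate 2 was lower than replicate 1 at the median member, with differences of -0.32 in sh-QKI and -0.34 in sh-Ctrl, where the medians over all tested genes were 0.0047 and -0.0023. Genes are not independent replicates, since all of them share the same libraries and depths. The methods describe 2 sequencing runs of different read length, but neither they nor the labels tie a number to a length. When the replicate number entered the fit as a block, limma called 2 members higher, COL8A1 and COL27A1, and 0 lower, against 0.49% of tested genes higher and 0.364% lower. Voom of limma with the block called the same pair higher and 0 members lower, against 0.583% and 0.575% of tested genes. An unadjusted p under 0.05 was then reached by 7 of the 36 tested members, against 727 of the 11829 tested genes. The 7 were LOXL1, COL1A1, COL27A1, LAMB3, COL18A1, COL8A1 and COL4A1. The block leaves few libraries to estimate a spread, so the standard errors, 0.115 to 0.166 over the members, come mostly from genes at like levels.

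**Figure D2:**
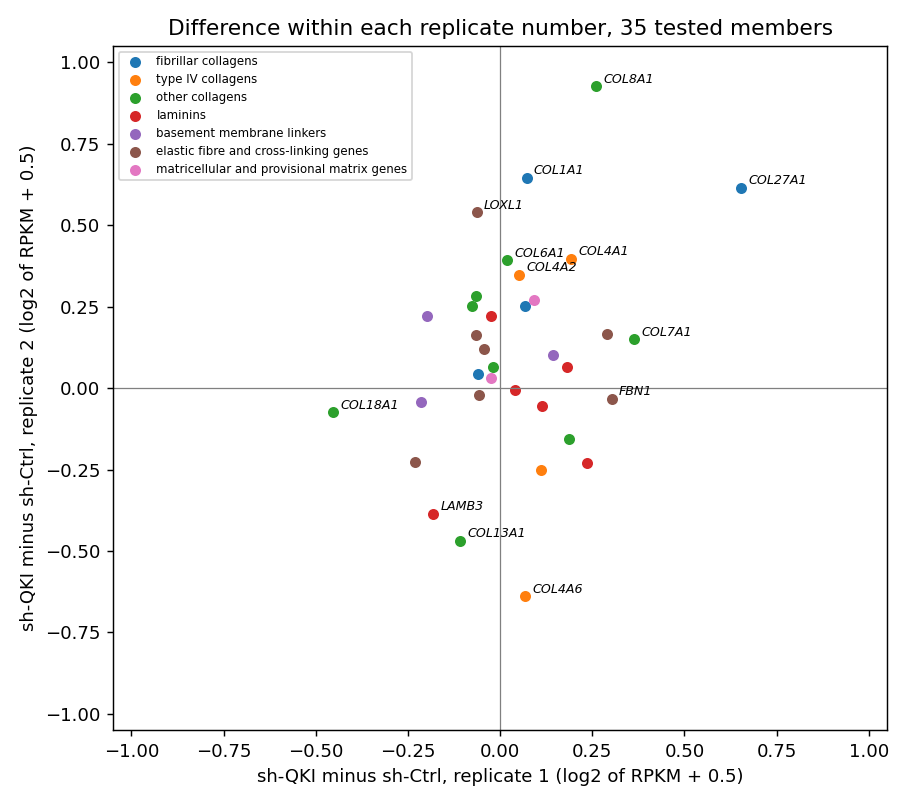
Difference of sh-QKI minus sh-Ctrl on the log2(RPKM + 0.5) scale within replicate 1 (x axis) and within replicate 2 (y axis) for 35 tested members, colored by class. COL27A1, at 0.65 and 0.61, and COL8A1, at 0.26 and 0.93, are the only members at 0.25 or higher on both axes.

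The difference between the replicate numbers moved with GC content. Across the 36 tested members, replicate 2 minus replicate 1 had a Pearson r with the GC content of the longest annotated transcript of -0.54 in sh-QKI and -0.60 in sh-Ctrl. Across 11616 tested genes r was -0.63 in sh-QKI and -0.72 in sh-Ctrl, so the trend was not particular to the members. For the difference of sh-QKI minus sh-Ctrl, r was -0.19 within replicate 1 and 0.19 within replicate 2 across the members, against -0.35 and 0.47 across 11616 genes. These are descriptions across genes that share libraries and depth. With the block and the trend on GC content removed in each library, a correction chosen after seeing the data, limma called 0 members, against 0.43% of genes higher and 0.62% lower. The differences were then 0.59 for COL27A1 and 0.56 for COL8A1, against 0.63 and 0.59 with the block alone, and the adjusted p was 0.0503 for COL27A1 and 0.0681 for COL8A1.

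**Figure D3:**
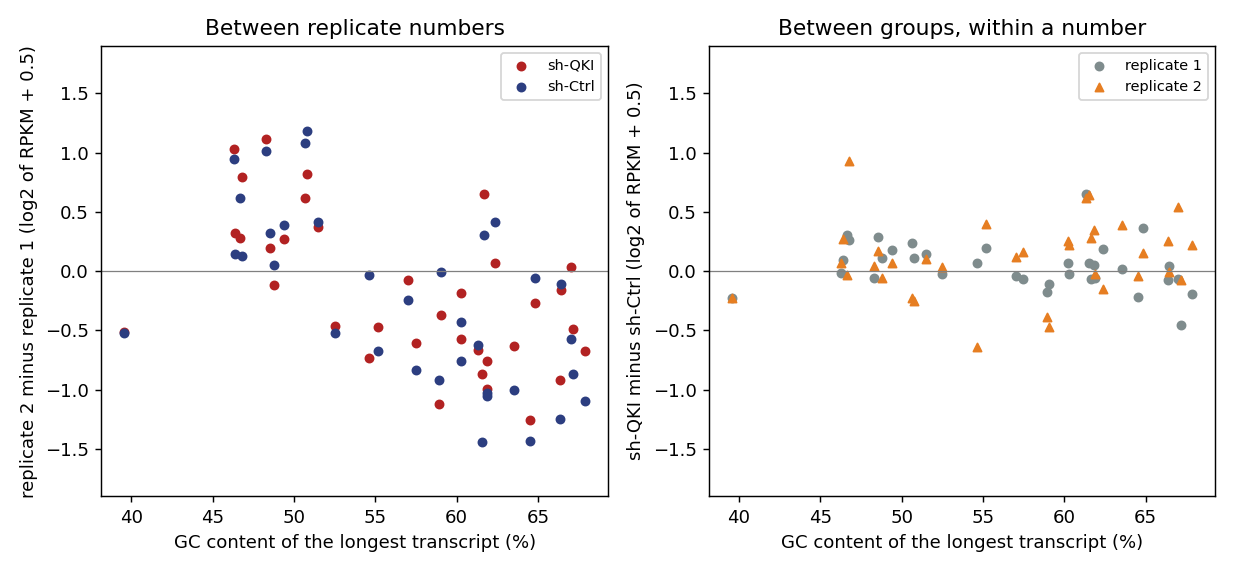
GC content of the longest transcript in percent (x axis) against differences on the log2(RPKM + 0.5) scale (y axis) for 35 tested members. Left: replicate 2 minus replicate 1 in sh-QKI (red) and sh-Ctrl (blue), which is lower at high GC content in both groups; right: sh-QKI minus sh-Ctrl within replicate 1 (gray) and replicate 2 (orange), with weaker trends of opposite sign.

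Among fibrillar collagens, 4 of the 11 listed genes were tested, and the median difference was 0.26 (0.07 and 0.43 within replicates 1 and 2). COL27A1, which encodes a fibrillar collagen of cartilage and other tissues and lies at chr9:116917817-117074791 in hg19, plus strand, had 2.72 and 1.53 RPKM in sh-QKI replicates 1 and 2, against 1.54 and 0.823 RPKM in sh-Ctrl replicates 1 and 2. Sh-QKI was higher within each number, but its replicate 2 lay just below sh-Ctrl replicate 1, so the groups overlapped. The means were 2.12 ± 0.841 RPKM in sh-QKI and 1.18 ± 0.509 RPKM in sh-Ctrl (SD, n = 2 each). The difference was 0.63 with a standard error of 0.155 with the block (limma adjusted p = 0.00801 with the block, 1.00 without it). It rested on 1105 and 1052 reads in sh-QKI, against 612 and 565 reads in sh-Ctrl, and voom of limma on these reads gave an adjusted p of 8.41e-06 with the block. Leaving out a library moved the difference, fitted without the block, to 0.30 without sh-QKI replicate 1, 0.97 without sh-QKI replicate 2, 0.95 without sh-Ctrl replicate 1 and 0.32 without sh-Ctrl replicate 2.

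The window before the start of COL27A1 is shown because this gene was called. It was taken from the RefSeq promoter table (GRCh38.p14) and placed on hg19 by exact match, at chr9:116917567-116917816 on the plus strand. Capitals mark the motif GGGCGG, the GC box bound by SP1-type factors, which was searched on both strands. Of the members 50 of 65 matched the table. COL8A1, which was called too, has no entry there, so no window is shown for it.
COL27A1: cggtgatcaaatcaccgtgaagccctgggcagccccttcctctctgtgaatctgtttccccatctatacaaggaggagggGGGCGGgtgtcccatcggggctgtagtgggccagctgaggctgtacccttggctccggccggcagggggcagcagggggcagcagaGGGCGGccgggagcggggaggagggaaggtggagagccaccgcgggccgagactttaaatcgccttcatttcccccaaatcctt
It held 2 GGGCGG, and neither CCAAT (both strands) nor TATAAA (gene strand). Of the 67 windows of members, 59.7% held GGGCGG, 26.9% CCAAT and 8.96% TATAAA, against 42.6%, 32.0% and 6.80% of all 35116 windows of 250 bases. A match is a run of letters and not a shown binding site.

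COL1A1, which encodes the main chain of type I collagen, the most abundant collagen of the body, had 54.1 and 29.5 RPKM in sh-QKI, against 51.5 and 18.6 RPKM in sh-Ctrl. The difference lay in replicate 2, at 0.65, with 0.07 in replicate 1 (limma adjusted p = 0.127 with the block). COL1A2, the partner chain of type I collagen, was all but absent, with 1 and 1 reads in sh-QKI and 1 and 0 reads in sh-Ctrl, where 0 reads allow up to 0.00537 RPKM (3 reads, counting error only). COL1A1 was thus 17930 and 16547 times COL1A2 in sh-QKI replicates 1 and 2 and 16619 times in sh-Ctrl replicate 1, ratios that rest on 1 read of COL1A2 each.

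COL5A2, a chain of type V collagen, which nucleates type I fibrils, had 26.7 and 58.5 RPKM in sh-QKI, against 27.8 and 56.7 RPKM in sh-Ctrl. COL5A1, its partner chain, had 41.8 and 28.0 RPKM in sh-QKI, against 39.9 and 23.4 RPKM in sh-Ctrl. Between the numbers the chains moved in opposite directions, so that the ratio of COL5A1 to COL5A2 was 1.57 and 0.478 in sh-QKI, against 1.43 and 0.412 in sh-Ctrl. The GC content of their longest transcripts was 60.2% for COL5A1 and 48.3% for COL5A2. Neither passed the test with or without the block (limma adjusted p = 0.999 for both with the block). The other 7 fibrillar genes, COL3A1 among them, reached at most 0.508 RPKM in any library.

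Of the 6 type IV collagen genes, which lie in head-to-head pairs, 4 were tested. Their median difference was 0.07, with 0.09 and 0.05 within the numbers. COL4A1 and COL4A2 encode the chains of the most widespread type IV network and share a short stretch between their starts on chromosome 13. COL4A2 had 78.0 and 45.8 RPKM in sh-QKI, against 75.2 and 35.9 RPKM in sh-Ctrl. COL4A1 had 34.7 and 24.9 RPKM in sh-QKI, against 30.3 and 18.8 RPKM in sh-Ctrl. Each was higher in sh-QKI within both numbers, by 0.05 and 0.35 for COL4A2 and by 0.19 and 0.40 for COL4A1, and replicate 1 was above replicate 2 in both groups. Neither passed the test (limma adjusted p = 0.949 for COL4A2 and 0.382 for COL4A1 with the block). The ratio of COL4A2 to COL4A1 was 2.25 and 1.84 in sh-QKI, against 2.48 and 1.91 in sh-Ctrl. In the annotation used here the gene models of the pair overlap at their 5′ ends, and the library kit does not mark strand, so reads there cannot be told apart.

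The whole stretch between the RefSeq starts of COL4A1 (minus strand) and COL4A2 (plus strand) is shown because a single region lies before both genes. It spans 126 bases, chr13:110959505-110959630 in hg19, printed on the plus strand, with CCAAT and GGGCGG in capitals.
COL4A1-COL4A2: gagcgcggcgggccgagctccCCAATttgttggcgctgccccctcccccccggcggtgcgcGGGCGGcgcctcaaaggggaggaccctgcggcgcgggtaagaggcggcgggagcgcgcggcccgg
Its GC content was 80.2%, and it held 1 CCAAT and 1 GGGCGG. The starts of COL4A4 and COL4A3 lay 418 bases apart, and those of COL4A6 and COL4A5 379 to 1415 bases apart, since COL4A6 has 2 starts.

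The pairs differed in level: COL4A3 and COL4A4, chains of the kidney glomerulus and lung alveolus, reached at most 0.156 RPKM. COL4A5, on the X chromosome, had 6.09 and 11.1 RPKM in sh-QKI, against 5.59 and 13.3 RPKM in sh-Ctrl. COL4A6, its head-to-head neighbour, had 2.65 and 1.39 RPKM in sh-QKI, against 2.51 and 2.45 RPKM in sh-Ctrl. COL4A6 was chosen after its values were seen, for its difference of -0.64 within replicate 2 beside 0.07 within replicate 1 (limma adjusted p = 0.854 with the block). COL4A5 likewise had opposite directions within the numbers, 0.11 and -0.25.

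Other collagens held the most members, 21, of which 9 were tested, with a median difference of 0.09 (-0.02 and 0.15 within the numbers). COL8A1, which encodes a short-chain collagen of vessel walls and of the basement membrane of the corneal endothelium, lies at chr3:99357319-99518070 in hg19, plus strand. It had 5.14 and 9.27 RPKM in sh-QKI replicates 1 and 2, against 4.20 and 4.64 RPKM in sh-Ctrl replicates 1 and 2. Both sh-QKI libraries were above both sh-Ctrl libraries, and most of the difference came from sh-QKI replicate 2. The means were 7.20 ± 2.92 RPKM in sh-QKI and 4.42 ± 0.312 RPKM in sh-Ctrl (SD, n = 2 each). The difference was 0.59 with a standard error of 0.136 with the block (limma adjusted p = 0.00294 with the block, 1.00 without it). Its reads were 1249 and 3820 in sh-QKI, against 996 and 1905 in sh-Ctrl (voom of limma with the block, adjusted p = 1.25e-04). Fitted without the block, the difference was 0.20 without sh-QKI replicate 2 and 0.99 without sh-QKI replicate 1. COL8A2, the related chain, chosen after its values were seen, had 1.57 and 2.75 RPKM in sh-QKI, against 1.66 and 2.18 RPKM in sh-Ctrl, and was not called (limma adjusted p = 0.999 with the block).

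**Figure D4:**
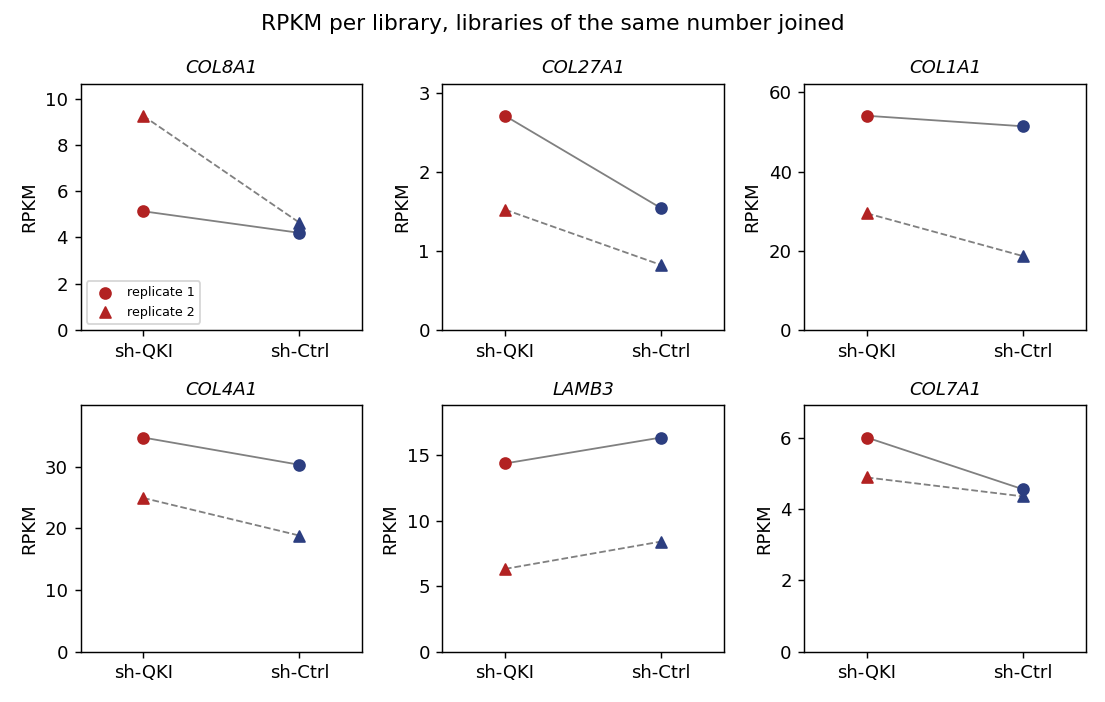
RPKM (y axis, from 0) of COL8A1, COL27A1, COL1A1, COL4A1, LAMB3 and COL7A1 in the sh-QKI and sh-Ctrl libraries (x axis), with a line joining the libraries of replicate 1 (circles, solid) and of replicate 2 (triangles, dashed). COL8A1, COL27A1, COL4A1 and COL7A1 are higher in sh-QKI on both lines, COL1A1 mainly in replicate 2, and LAMB3 is lower in sh-QKI on both lines but lies farther apart between the numbers.

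COL12A1, which encodes a fibril-associated collagen, had the highest mean of these genes, with 44.0 and 90.3 RPKM in sh-QKI, against 44.6 and 86.3 RPKM in sh-Ctrl. Its groups overlapped, with replicate 2 above replicate 1 in each. COL6A1, a chain of the microfibril-forming type VI collagen, had 36.2 and 23.2 RPKM in sh-QKI, against 35.7 and 17.6 RPKM in sh-Ctrl. COL6A2, the second chain, had 21.3 and 11.0 RPKM in sh-QKI, against 22.5 and 9.15 RPKM in sh-Ctrl. The third chain, COL6A3, was nearly absent at 0.0615 and 0.00794 RPKM in sh-QKI and 0.0631 and 0.0205 RPKM in sh-Ctrl. COL6A1 was 1.70 and 2.12 times COL6A2 in sh-QKI, against 1.59 and 1.92 times in sh-Ctrl, while COL6A2 was 346 to 1383 times COL6A3 over the 4 libraries. The lengths behind these RPKM were recovered as 7359 bases for COL6A1 and 8717 bases for COL6A2. Their longest annotated transcripts have 4203 and 3445 bases, so the size of the ratio depends on the lengths taken.

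Groups that did not overlap were about as common among members as among all genes. Both sh-QKI libraries were above both sh-Ctrl libraries for COL8A1 and COL7A1, which is 5.56% of the tested members, against 5.71% of tested genes. COL7A1, the anchoring fibril collagen that ties the basement membrane to the tissue under it, had 6.01 and 4.89 RPKM in sh-QKI, against 4.56 and 4.36 RPKM in sh-Ctrl (limma adjusted p = 0.877 with the block). Among the tested members both were below for COL13A1 alone, 2.78% of them, against 2.89% of tested genes. COL13A1, a transmembrane collagen, had 1.08 and 0.723 RPKM in sh-QKI, against 1.20 and 1.19 RPKM in sh-Ctrl (limma adjusted p = 0.910 with the block). COL7A1 and COL13A1 are named after their values were seen. Among the remaining tested genes of the class, COL18A1, the source of endostatin, had 6.71 and 4.62 RPKM in sh-QKI, against 9.36 and 4.89 RPKM in sh-Ctrl, a difference of -0.45 within replicate 1 and -0.07 within replicate 2, and COL16A1 stayed between 0.402 and 0.699 RPKM. The 12 untested genes reached at most 0.519 RPKM. That value was of COL9A2, named after its values were seen, at 0.119 and 0.276 RPKM in sh-QKI, against 0.312 and 0.519 RPKM in sh-Ctrl. It rested on 16 and 63 reads in sh-QKI and 41 and 118 reads in sh-Ctrl. Voom of limma with the block and no limit on level did not call it (adjusted p = 0.316). COL17A1, the hemidesmosomal collagen of basal epithelial cells, was also untested, at 0.01 to 0.0289 RPKM.

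Laminin genes were tested for 7 of 12 listed chains, with a median difference of 0.02 (0.04 and -0.05). LAMC1, the gamma chain of most laminins, had 59.8 and 55.1 RPKM in sh-QKI, against 55.2 and 57.2 RPKM in sh-Ctrl, so all 4 libraries lay within 55.1 to 59.8 RPKM. LAMB1, a beta chain, had 30.1 and 36.5 RPKM in sh-QKI, against 26.5 and 34.9 RPKM in sh-Ctrl. LAMB2, another beta chain, ranged from 18.5 to 25.2 RPKM. The alpha chains were far lower. LAMA3, an alpha chain of epithelial anchorage, had 3.55 and 5.71 RPKM in sh-QKI, against 2.94 and 6.78 RPKM in sh-Ctrl, and LAMA5, a widespread alpha chain, had 2.68 and 2.35 RPKM in sh-QKI, against 2.59 and 2.36 RPKM in sh-Ctrl. Per length, LAMC1 was 16.9 and 9.65 times LAMA3 in sh-QKI, against 18.8 and 8.44 times in sh-Ctrl. It was 22.4 and 23.5 times LAMA5 in sh-QKI, against 21.3 and 24.3 times in sh-Ctrl. The other alpha chains, LAMA1, LAMA2 and LAMA4, reached at most 0.47 RPKM, and the untested LAMB4 and LAMC3 at most 0.037 RPKM.

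LAMB3, the beta chain of the same epithelial laminin as LAMA3, chosen after its values were seen, had 14.4 and 6.31 RPKM in sh-QKI, against 16.3 and 8.40 RPKM in sh-Ctrl (limma adjusted p = 0.577 with the block). It was lower in sh-QKI within both numbers, with differences of -0.18 and -0.39, while LAMA3 had 0.24 and -0.23.

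The linkers of the basement membrane had a median difference of 0.01 over 3 tested genes (-0.20 and 0.10). AGRN, which encodes agrin, a heparan sulfate proteoglycan that binds laminin, had 68.5 and 42.7 RPKM in sh-QKI, against 78.6 and 36.6 RPKM in sh-Ctrl. HSPG2, which encodes perlecan, had 35.1 and 14.4 RPKM in sh-QKI, against 40.8 and 14.8 RPKM in sh-Ctrl. In both groups replicate 2 was below replicate 1 for both genes, and the groups overlapped. NID1, which bridges laminin and type IV collagen, ranged from 12.2 to 17.7 RPKM and was 0.14 and 0.10 higher in sh-QKI within the numbers, while NID2 stayed at or under 0.428 RPKM.

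Elastic fiber and cross-linking genes were tested for 7 of 8, with a median difference of 0.05 (-0.06 and 0.12). LOXL2, a lysyl oxidase of type IV collagen cross-linking, had 138 and 90.5 RPKM in sh-QKI, against 145 and 80.7 RPKM in sh-Ctrl. LOXL1, a lysyl oxidase needed for elastic fibers, had 50.6 and 51.8 RPKM in sh-QKI, against 52.9 and 35.5 RPKM in sh-Ctrl. The sh-Ctrl replicate 2 library was thus the one that stood low (difference 0.54 within replicate 2 and -0.06 within replicate 1, limma adjusted p = 0.743 with the block). LOX itself had differences of -0.23 within both numbers, and FBN2, a fibrillin, of 0.29 and 0.17, and neither passed the test (limma adjusted p = 0.838 and 0.813 with the block). ELN, the elastin gene, was at most 0.0235 RPKM. The other tested genes of the class were FBLN2 at 23.2 to 48.5 RPKM, FBN1 at 23.2 to 35.8 RPKM and FBLN1 at 6.15 to 7.36 RPKM, and their groups overlapped.

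SPARC, a collagen-binding matricellular protein, was the most abundant member and had a higher mean than 99.4% of tested genes. It had 204 and 255 RPKM in sh-QKI, against 191 and 211 RPKM in sh-Ctrl, with differences of 0.09 and 0.27 (limma adjusted p = 0.999 with the block). TNC, which encodes tenascin-C, had 107 and 77.1 RPKM in sh-QKI, against 109 and 75.5 RPKM in sh-Ctrl.

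VCAN, which encodes the proteoglycan versican, was under the limit for testing and is named after its values were seen. It had 0.00345 and 0.0418 RPKM in sh-QKI, against 0.135 and 0.138 RPKM in sh-Ctrl, from 2 and 41 reads in sh-QKI and 76 and 135 reads in sh-Ctrl. Both sh-QKI libraries were below both sh-Ctrl libraries. The 0.5 added before the logarithm left a difference of -0.33 and -0.24 within the numbers. Voom of limma with the block and no limit on level, run after seeing the data, called VCAN lower in sh-QKI with a log2 fold change of -2.54 (standard error 0.522, adjusted p = 0.0238), against 0.287% of 16708 genes called lower and 0.209% called higher. It called COL8A1 and COL27A1 higher, at adjusted p of 0.0296 and 0.00311. Its window is shown because VCAN was the member called lower in that fit: it lies at chr5:82767313-82767562 in hg19, plus strand, from the same RefSeq table, with the GGGCGG match, here on the minus strand, in capitals.
VCAN: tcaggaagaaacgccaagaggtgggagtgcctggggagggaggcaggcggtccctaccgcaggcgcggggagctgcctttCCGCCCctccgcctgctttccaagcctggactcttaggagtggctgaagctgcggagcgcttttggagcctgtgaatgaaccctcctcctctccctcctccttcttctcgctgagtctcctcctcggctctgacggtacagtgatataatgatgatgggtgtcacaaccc
It held 1 GGGCGG and no CCAAT or TATAAA. In the annotation used for gene positions, VCAN starts at base 82767437, inside this window.

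Of the enzymes and carriers that modify and secrete collagen, 25 genes were listed and 22 tested, with a median difference of 0.09 (0.03 and 0.20). Limma with the block called 1 of the 22 higher, LEPREL1, and 0 lower, against 0.49% of tested genes higher and 0.364% lower. LEPREL1 (also P3H2) encodes a prolyl 3-hydroxylase that acts on type IV collagen. It had 14.8 and 26.8 RPKM in sh-QKI, against 10.5 and 17.6 RPKM in sh-Ctrl. Its difference was 0.53, with 0.47 and 0.59 within the numbers (limma adjusted p = 0.00224 with the block, 1.00 without it). PPIB, a prolyl isomerase of collagen folding, was highest, at 390 and 265 RPKM in sh-QKI and 395 and 244 RPKM in sh-Ctrl. PLOD2, a lysyl hydroxylase chosen after its values were seen, had 55.9 and 107 RPKM in sh-QKI, against 66.7 and 150 RPKM in sh-Ctrl, with differences of -0.25 and -0.49 (limma adjusted p = 0.109 with the block, and 0.0171 with the block and the GC trend removed).

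Of the 16 listed collagen and laminin receptors, 15 were tested, with a median difference of 0.03 (0.07 and -0.00031 within the numbers) and none called by limma with or without the block. SDC4, which encodes syndecan-4, was the highest, at 129 and 222 RPKM in sh-QKI, against 95.5 and 173 RPKM in sh-Ctrl. It was higher in sh-QKI within both numbers, by 0.43 and 0.36 (limma adjusted p = 0.0909 with the block, and 0.0350 with the GC trend removed too). Voom of limma with the block gave 0.0450. Of 23 listed genes of other matrix and basement membrane proteins, 15 were tested and 0 were called by limma with or without the block, with a median of 0.0018 (-0.11 and 0.0072 within the numbers). CYR61, a matricellular gene, was the highest there, with 315 and 252 RPKM in sh-QKI, against 366 and 218 RPKM in sh-Ctrl.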

How the data were processed

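RNA was sequenced in 2 sh-QKI and 2 sh-Ctrl libraries. The authors aligned single-end reads with Bowtie to hg19, the build the submitters' processing notes name, and to exon junctions of Ensembl protein-coding genes, allowing 3 mismatches and leaving out ambiguous reads. In each of the 4 deposited tables the authors give 1 RPKM value per gene. The sources used here do not give their gene lengths or how overlapping genes were treated.

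Whole reads were recovered for 100% of values (relative tolerance 1e-11). The recovered lengths were 1.70 times the longest annotated transcript at the median, and gene reads summed to 1.35 to 1.53 times the library totals. The recovered reads may therefore not all be distinct reads, which the voom fits do not allow for. All ratios between chains rest on these lengths and would shift with others. Limma 3.58.1 in R 4.3.3 was fitted with a mean-variance trend to log2(RPKM + 0.5) of 11829 genes (mean over the 4 libraries at or above 0.5 RPKM). The test was two-sided, p-values were adjusted over all these genes by Benjamini-Hochberg, and 0.05 was the threshold. It was run without a block and with one for the replicate number. With 2 shared numbers and no stated common culture or day, the number is a batch term and not a known pairing. Voom of limma on the recovered reads, other pseudocounts, limits, median centring and leaving out each library were alternatives. A GC correction (trend on the GC content of the longest GENCODE transcript removed in each library, available for 98.2% of tested genes and all members) and voom without a limit were chosen after seeing the data. Python 3.11.15 with numpy 2.4.6, pandas 2.3.3, scipy 1.17.1 and matplotlib 3.10.9 was used. Gene positions are from GENCODE on hg19.

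Members and lists were chosen with earlier results of these data known. Members were named if called with or without the block, if among the 2 highest of their class, if at least 0.25 apart in one direction within both numbers, or as chains of a ratio; list genes if called with the block or highest. Other names were chosen after their values were seen. The results of 1 tested member are not reported here, although counts and medians over the members include it. A further 7 symbols of collagen genes that fit the rule had no value in the tables used.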

Additional observations from a re-analysis of the deposited data

How the results depend on the processing

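Calls depended on the treatment of the replicate number. Without a block, limma called 0 genes with pseudocounts of 0.1 and 1, no limit, a limit of 1 RPKM and median centring, and voom of limma also called 0. QKI, the targeted gene, was thus missed in each of these fits. With the replicate block it called 58 genes higher and 43 lower, and 2 members and 1 list gene higher. With the block and median centring it called 48 higher and 66 lower, and again 2 members and 1 list gene higher. Voom with the block called 69 higher and 68 lower, 2 members and 2 list genes higher, and without a limit 35 higher and 48 lower, 2 members and 1 list gene higher and 1 member lower. With the block and the GC trend removed there were 50 higher and 72 lower, 0 members (COL27A1 and COL8A1 narrowly missed the threshold at differences of 0.59 and 0.56, against 0.63 and 0.59 with the block alone), and 2 list genes higher (LEPREL1, SDC4) and 1 lower (PLOD2), and the median member difference was 0.0026, against 0.04. COL8A1 and COL27A1 were called under the block, under the block with centring and under both voom fits with the block. Same-numbered libraries resembled each other in depth and in how they deviated, but neither labels nor methods say what a number stands for, so the block is no known pairing.

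Leaving out 1 library unbalances the numbers between the groups. It gave 0 to 2 genes called higher, 0 to 1 lower, 0 members, and a median member difference of -0.065 to 0.17. Of 35 member differences 29 took both directions: AGRN -0.53 to 0.56, COL12A1 -0.49 to 0.54, COL16A1 -0.19 to 0.22, COL18A1 -0.70 to 0.17, COL1A1 -0.36 to 1.08, COL4A1 -0.042 to 0.63, COL4A2 -0.33 to 0.73, COL4A5 -0.66 to 0.52, COL4A6 -0.65 to 0.082, COL5A1 -0.22 to 0.54, COL5A2 -0.57 to 0.55, COL6A1 -0.29 to 0.71, COL6A2 -0.54 to 0.71, COL8A2 -0.22 to 0.44, FBLN1 -0.082 to 0.16, FBLN2 -0.55 to 0.48, FBN1 -0.17 to 0.44, HSPG2 -0.84 to 0.59, LAMA3 -0.54 to 0.55, LAMA5 -0.062 to 0.10, LAMB1 -0.071 to 0.32, LAMB2 -0.12 to 0.32, LAMB3 -0.85 to 0.28, LAMC1 -0.029 to 0.088, LOX -0.49 to 0.033, LOXL1 -0.047 to 0.52, LOXL2 -0.37 to 0.47, NID1 -0.084 to 0.33, TNC -0.26 to 0.26. The others, COL7A1, COL8A1, COL13A1, COL27A1, FBN2 and SPARC, kept theirs.

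Differences near 0 changed sign elsewhere. With median centring, with or without the block, they were -0.022 for AGRN, -0.011 for COL12A1, -0.019 for COL16A1, -0.031 for LAMA3, -0.017 for LAMA5, -0.0046 for LAMC1 and -0.032 for TNC. With the block and the GC trend removed they were -0.045 for AGRN, -0.014 for COL12A1, -0.034 for COL16A1, -0.0024 for FBLN1, -0.036 for LAMA3, -0.038 for LAMA5, -0.0092 for LAMC1 and -0.037 for TNC. LAMA3 had -0.0027 with a pseudocount of 1, and voom with the block gave -0.029 for LAMA3 and -0.020 for COL16A1, and without a limit -0.033 and -0.037. The cause of these changes was not tested. Over all alternatives that kept 4 libraries, 350 differences held their direction and side of the threshold and 27 changed sign. Another 8 newly passed the threshold, all of COL8A1 and COL27A1 with the block. The remaining 1, of VCAN, passed it in voom with the block and no limit, on another scale than log2(RPKM + 0.5). With 2 libraries a group, low genes such as VCAN rest on few reads, and the depth cannot show small differences of the 29 members under the limit.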
